A study of Mus musculus with 18 samples.

Results

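Immunoglobulin heavy-chain variable segments are the germline V genes (Ighv in the mouse) from which each B cell chooses 1 when it assembles its heavy chain. Rows of the deposited table were taken as segments where the GRCm38 annotation gave a symbol starting with Ighv and the biotype IG_V_gene. The rule found 113 segments among 51912 rows, and the other 72 of the 185 rows with an Ighv symbol, mostly pseudogenes by their biotype, were left out. Each segment was followed as its share of the summed Ighv counts of a library, in percent.

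Poly-A RNA was sequenced from B cells of C57BL/6 mice in 18 libraries, 3 for each of 6 groups. WT or Sh3gl1-/- cells were taken as untreated transitional B cells, as untreated follicular B cells, or as follicular B cells treated with CD40L for 14 h. Sh3gl1 encodes endophilin A2, an adaptor of membrane traffic that acts in endocytosis. The Sh3gl1-/- mice lack the gene in every tissue from the germ line on and were compared with WT littermates, so the B cells of these mice developed in a knockout host. In the study's flow cytometry, transitional cells were the B220+CD93+ cells of the spleen, divided by CD23 and IgM, and follicular cells were B220+CD93- cells gated by CD23 and CD21/35. T cells carry CD40L, and its binding to CD40 activates B cells. Ages of these mice were not given, and nothing in the labels ties a library of one cell state to the same mouse in another.

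In developing B cells, the RAG recombinase joins 1 V segment to a D and a J segment, and the joined exon is transcribed from the promoter of that V segment together with the constant exons of Ighm. A B cell and its progeny then carry the same V segment, so the segment shares of a population read out which receptors its cells express, weighted by how much heavy-chain RNA each cell makes. Segments fall into families by sequence, and the large family 1 (also called J558) occupies the side of the locus far from the D segments. A few segments are known for recurrent receptors: Ighv11-2 and Ighv12-3 for the phosphatidylcholine-binding receptors of B-1a cells, Ighv7-1 for the phosphorylcholine-binding T15 receptor, Ighv5-2 (VH81X) for its place next to the D segments, and Ighv1-72 (V186.2) for binding of the hapten NP. In bulk RNA, more cells with a segment and more heavy-chain RNA per cell cannot be told apart.

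All 113 segments lie on the minus strand of chromosome 12 between positions 113578504 and 116000461 of GRCm38, a stretch of 2.42 Mb, and belong to 16 families. Each is annotated with 2 exons, a short leader exon and the V exon, except Ighv1-16 and Ighv8-13, which have 1. The coding part of the V exon runs from 294 to 351 bases (median 305). Many are close copies of each other. By global alignment of the V exons, 2 segments were identical to another segment, 57 were at least 95% identical to their nearest relative and 88 at least 90%. Reads in the shared stretches were divided among such rows by the authors' counting, so the shares of close relatives carry this uncertainty.

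Segments that the results below turn on are shown beside their nearest relative, so that the bases that tell the rows apart can be seen. Each line gives the last 300 bases of the V exon, 5′ to 3′ on the minus strand, from the GENCODE M21 transcripts on GRCm38, and capitals mark the bases that differ from the other member of the pair. The first pair is Ighv11-2 (chr12:114048241-114048540) and Ighv11-1 (chr12:113981879-113982178), which differ at 4 bases and are 98.7% identical.
Ighv11-2: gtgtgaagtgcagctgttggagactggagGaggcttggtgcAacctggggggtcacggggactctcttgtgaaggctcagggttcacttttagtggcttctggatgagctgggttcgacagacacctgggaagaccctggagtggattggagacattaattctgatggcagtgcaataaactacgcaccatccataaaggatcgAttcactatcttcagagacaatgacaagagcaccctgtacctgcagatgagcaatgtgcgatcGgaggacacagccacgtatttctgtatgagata
Ighv11-1: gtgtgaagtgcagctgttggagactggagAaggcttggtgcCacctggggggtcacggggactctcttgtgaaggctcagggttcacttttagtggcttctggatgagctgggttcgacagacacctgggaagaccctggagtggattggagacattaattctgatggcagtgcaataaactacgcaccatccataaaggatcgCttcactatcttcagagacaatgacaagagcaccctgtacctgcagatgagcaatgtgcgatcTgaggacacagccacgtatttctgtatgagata
Ighv1-26 (chr12:114788372-114788671) and Ighv1-18 (chr12:114682632-114682931) differ at 8 bases.
Ighv1-26: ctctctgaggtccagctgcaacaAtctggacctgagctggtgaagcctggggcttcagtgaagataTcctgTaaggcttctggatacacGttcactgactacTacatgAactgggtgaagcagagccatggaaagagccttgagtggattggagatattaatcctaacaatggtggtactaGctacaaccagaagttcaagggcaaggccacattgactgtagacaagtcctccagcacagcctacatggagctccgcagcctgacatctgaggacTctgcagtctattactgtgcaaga
Ighv1-18: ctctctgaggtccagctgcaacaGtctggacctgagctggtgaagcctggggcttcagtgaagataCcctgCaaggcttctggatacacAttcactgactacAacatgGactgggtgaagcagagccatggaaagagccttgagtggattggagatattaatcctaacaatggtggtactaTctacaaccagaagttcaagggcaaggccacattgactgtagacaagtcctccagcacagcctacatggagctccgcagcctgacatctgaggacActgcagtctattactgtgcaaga
Ighv6-3 (chr12:114391712-114392011) and Ighv6-6 (chr12:114434788-114435087) are 92.6% identical, and both were lower in follicular cells.
Ighv6-3: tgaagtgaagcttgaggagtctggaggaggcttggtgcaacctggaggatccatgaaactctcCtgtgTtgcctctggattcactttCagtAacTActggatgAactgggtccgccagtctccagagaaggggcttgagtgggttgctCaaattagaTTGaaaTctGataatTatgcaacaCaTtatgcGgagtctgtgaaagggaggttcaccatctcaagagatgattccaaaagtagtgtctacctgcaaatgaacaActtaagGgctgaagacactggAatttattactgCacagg
Ighv6-6: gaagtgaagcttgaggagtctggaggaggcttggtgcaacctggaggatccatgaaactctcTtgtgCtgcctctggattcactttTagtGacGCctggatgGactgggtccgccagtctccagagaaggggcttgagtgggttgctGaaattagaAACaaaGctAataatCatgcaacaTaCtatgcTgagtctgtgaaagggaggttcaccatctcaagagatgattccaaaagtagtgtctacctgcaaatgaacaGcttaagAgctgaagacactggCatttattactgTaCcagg
Ighv1-80 (chr12:115912344-115912643) and Ighv1-82 (chr12:115952538-115952837), near the far end of the locus, differ at 12 bases, and both had higher shares in follicular cells.
Ighv1-80: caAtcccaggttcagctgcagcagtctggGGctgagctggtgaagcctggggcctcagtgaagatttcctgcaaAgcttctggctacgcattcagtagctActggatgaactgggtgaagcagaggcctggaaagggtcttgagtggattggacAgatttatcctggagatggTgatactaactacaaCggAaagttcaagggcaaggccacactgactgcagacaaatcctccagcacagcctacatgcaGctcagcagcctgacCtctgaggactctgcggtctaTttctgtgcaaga
Ighv1-82: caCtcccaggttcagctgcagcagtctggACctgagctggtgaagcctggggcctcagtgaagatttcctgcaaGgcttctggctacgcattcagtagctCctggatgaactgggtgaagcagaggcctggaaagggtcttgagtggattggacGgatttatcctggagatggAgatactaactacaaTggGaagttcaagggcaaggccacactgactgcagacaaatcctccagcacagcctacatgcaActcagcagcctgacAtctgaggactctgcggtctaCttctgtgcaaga

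Libraries held between 12404688 and 18366078 expected counts. Sh3gl1 stood at 29.8 to 57.9 CPM (counts scaled to the library size) in the 9 WT libraries and at 0.072 to 1.76 CPM in the 9 Sh3gl1-/- libraries. Cd93, the marker of the transitional gate, was at 57.5 to 85.7 CPM in the 6 transitional libraries and at 11.8 to 26.3 CPM in the 6 follicular libraries. The summed Ighv counts were 20911 to 37641 in transitional, 11552 to 15884 in follicular and 5167 to 8062 in CD40L-treated libraries. A segment with 0 counts could therefore still hold up to 0.0143%, 0.026% and 0.0581% of the Ighv counts in the shallowest library of each state (3 counts, counting error only). One library stood apart: in Sh3gl1-/- transitional replicate 3, a single segment, Ighv1-26, took 35.4% of the Ighv counts. Results that rest on it are given with and without it.

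Most segments were in use in every library. Of the 113 segments, 92 had a count in all 18 libraries, 19 in some of them and 2 (Ighv7-2 and Ighv8-13, named here because they are the exceptions) in none. In the 9 WT libraries the 10 most used segments together held 34.5% of the Ighv counts, 18 segments made up the first 50% and 53 segments the first 90%. Thus use was broad and no segment dominated a WT library.

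Ighv9-3 was the most used segment, with a mean share of 5.74% over the 9 WT libraries (4.55% to 6.87% over all 18). Ighv1-26 followed at 4.76%, Ighv6-3 at 3.56%, Ighv1-64 at 3.55%, Ighv3-6 at 3.31% and Ighv5-4 at 3.2%. The next were Ighv1-72 at 2.87%, Ighv5-17 at 2.59%, Ighv1-55 at 2.48% and Ighv1-9 at 2.47%. These are shares of counts. By TPM, which scales to transcript length, the first 3 kept their order, Ighv3-6 passed Ighv1-64, and Ighv8-12 (2.39% of summed TPM) took the place of Ighv1-55 (2.12%) among the first 10. The 10 segments come from 5 families and are spread over the whole locus.

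**Figure D1:**
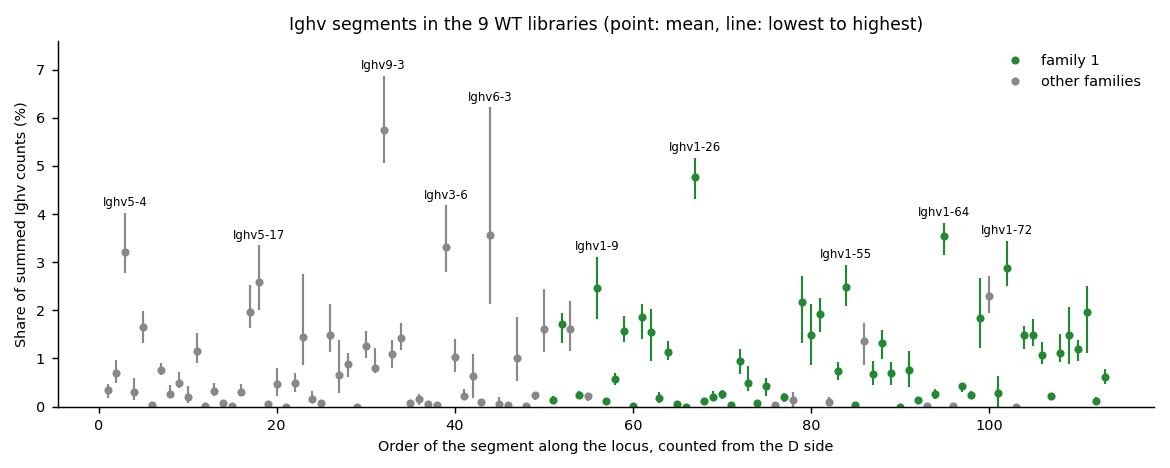
Share of the summed Ighv counts (percent, vertical axis) for each of the 113 segments in the 9 WT libraries, ordered along the locus from the D side (horizontal axis). Points are means and lines run from the lowest to the highest WT library; Ighv9-3 has the highest mean, 5.74%, and family 1 (green) fills most of the far side.

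Family 1, with 53 of the 113 segments, held 44.7%, 49.1% and 48.5% of the Ighv counts in WT transitional and 53.5%, 54.5% and 53.1% in WT follicular libraries. Family 5, whose 10 segments lie near the D side, held a mean of 12.1% in WT transitional and 12.7% in WT follicular cells. Family 9 (4 segments, Ighv9-3 among them) held 9.95% and 8.46%, and family 6 (5 segments) 6.84% and 3.45%. Family shares are given as a description, since their members share sequence and position.

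The first comparison asked whether loss of endophilin A2 went with a different choice of segments in transitional cells. In the data, Ighv11-2 was higher in all 3 Sh3gl1-/- libraries than in any WT library, and Ighv9-4 was lower. No other segment passed the test. The 3 Sh3gl1-/- libraries differed more from each other than those of any other group.

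Ighv11-2 (ENSMUSG00000096108, chr12:114048241-114048812) took 0.774%, 1.39% and 0.662% of the Ighv counts in the 3 WT transitional libraries. In the 3 Sh3gl1-/- transitional libraries it took 9.13%, 2.87% and 3.51%. The groups do not overlap, and in Sh3gl1-/- replicate 1 it was the most used segment of all, with 3437 counts. The means were 0.941% ± 0.390 and 5.17% ± 3.44 (SD, n = 3), a log2 difference of 2.45 (SE 0.44) with an adjusted p of 0.0259 by edgeR's quasi-likelihood test over all genes. Its near copy Ighv11-1 stayed between 0.0169% and 0.124% in all 18 libraries, so the difference lay in the row with the Ighv11-2 bases shown above.

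Ighv9-4 (ENSMUSG00000094322, chr12:114299961-114300389), a relative of Ighv9-3, took 1.33%, 1.18% and 1.40% in WT and 0.718%, 0.840% and 0.465% in Sh3gl1-/- transitional libraries. The groups are again apart, with a log2 difference of -0.95 (SE 0.21) and an adjusted p of 0.04 by edgeR, which was not reached in 9 of 13 alternatives. Of 96 segments tested, 2 (2.08%) were thus called at an adjusted p under 0.05, 1 higher and 1 lower, whereas 3.74% of all 13774 genes tested were (1.26% higher and 2.48% lower). The share of segments called was therefore no higher than that of genes in general. Segments whose groups did not overlap numbered 19 (19.8%), 2 higher and 17 lower, against 28% of all genes (13.6% higher and 14.4% lower).

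Of the 96 segments, 75 had a lower share in Sh3gl1-/- than in WT transitional cells, with a median log2 difference of -0.32, against 0.01 over all genes. Shares sum to 100%, so a segment at 35.4% lowers every other share in its library. With Ighv1-26 and Ighv11-2 left out of the sum the median was -0.07, and 2 segments were called (1 higher, 1 lower). Scaled to the whole library instead, the median was -0.01 and 1 segment was called. The calls were few and changed with the settings. DESeq2 called 7 of the 96 segments (1 higher, 6 lower), against 1345 of 13774 genes. Leaving out any of the 3 WT libraries, or Sh3gl1-/- replicate 3, left 0 segments called by edgeR. For Ighv11-2 the log2 difference was 2.67 (adjusted p = 0.073, edgeR) without Sh3gl1-/- replicate 3 and 1.75 (adjusted p = 0.0466) without Sh3gl1-/- replicate 1.

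Ighv12-3 (chr12:114366521-114366954), the other segment of the phosphatidylcholine receptors, took 0.126%, 0.119% and 0.139% in WT and 0.290%, 0.168% and 0.287% in Sh3gl1-/- transitional libraries. The groups are apart, but the log2 difference of 0.96 (SE 0.32) had an adjusted p of 0.119 by edgeR. Together, Ighv11-2 and Ighv12-3 held 0.8% to 1.51% of the Ighv counts in WT and 3.04% to 9.42% in Sh3gl1-/- transitional cells. A two-sided exact permutation test on these sums gave p = 0.1, the smallest that 3 libraries against 3 allow, and 0.255 after adjustment over the 28 tests of library values.

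Ighv1-26 (ENSMUSG00000094546, chr12:114788372-114788805) took 4.85%, 4.84% and 4.59% in WT transitional libraries, and 3.84%, 4.21% and 35.4% in the Sh3gl1-/- libraries. A single library set the difference between the means. The log2 difference was 1.61 (SE 0.73, adjusted p = 0.235 by edgeR), and without Sh3gl1-/- replicate 3 it was -0.24. In the other 17 libraries Ighv1-26 lay between 3.84% and 5.83%, and the highest of these was the Sh3gl1-/- follicular library with the same replicate number. Its relative Ighv1-18 held 1.37% in Sh3gl1-/- transitional replicate 3 and 1.24% to 2.14% over all 18. With Ighv1-26 left out of the sum, Ighv1-18 held 2.12% in that library, and 1.29% and 1.87% in Sh3gl1-/- transitional replicates 1 and 2.

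**Figure D2:**
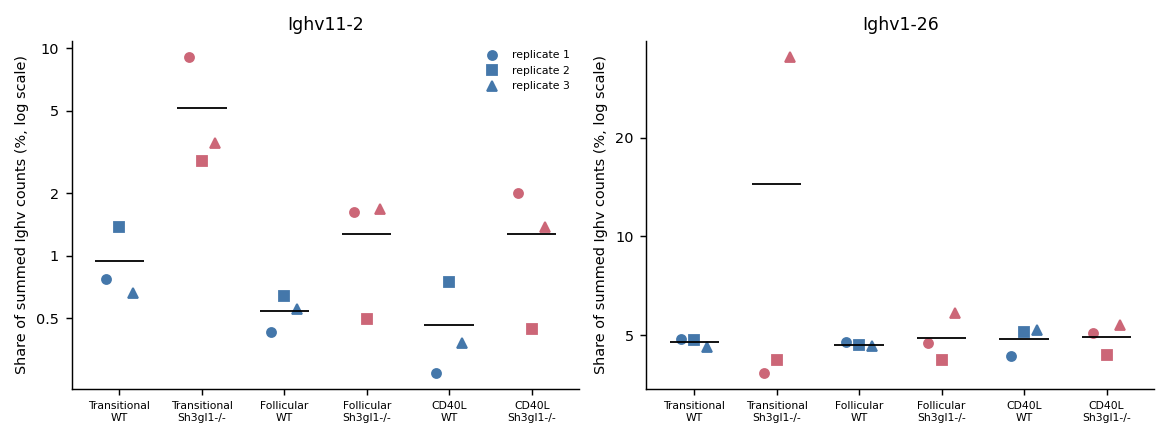
Share of the summed Ighv counts (percent, log scale) of Ighv11-2 (left) and Ighv1-26 (right) in every library, by cell state and genotype; symbols mark the replicate number and bars the mean of 3. Ighv11-2 lies between 2.87% and 9.13% in Sh3gl1-/- transitional libraries against 0.662% to 1.39% in WT, and Ighv1-26 reaches 35.4% in 1 library.

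Other segments were high in single libraries of the same group. A segment was listed where its share was at least 3 times its median over the 18 libraries and at least 0.5%. Sh3gl1-/- transitional replicate 1 had 4 such segments, Ighv11-2, Ighv5-9-1 (4.31%), Ighv2-9-1 (1.94%) and Ighv15-2 (0.871%), with a summed share of 16.3%. Replicate 2 had Ighv11-2 and Ighv2-6 (1.42%), and replicate 3 had Ighv1-26 and Ighv11-2, which together held 38.9%. In the other 15 libraries the list held 4 entries, each of at most 0.72%: Ighv1-71 in 3 WT libraries and Ighv2-6 in 1 Sh3gl1-/- follicular library. The V exon of Ighv1-71 is 100% identical to that of Ighv1-62-2, and its share ranged from 0% to 0.643% over the 18 libraries. How the counting divided reads between these 2 rows was not tested. All segments of the list were chosen after their values were seen and are given as a description.

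Some of the raised segments were also high in other libraries with the same replicate number, and others were not. Ighv5-9-1 was at 4.31% in transitional, 2.36% in follicular and 1.76% in CD40L-treated cells of Sh3gl1-/- replicate 1, each the highest of the 6 libraries of that state. Ighv2-6 was at 1.42% in transitional and 0.72% in follicular cells of Sh3gl1-/- replicate 2, and at 0.136% after CD40L. Ighv2-9-1, at 1.94% in transitional replicate 1, was at 0.397% in follicular replicate 1, below 1 of the WT follicular libraries. After CD40L it was at 0.673% in Sh3gl1-/- replicate 1, the highest of the 6 libraries of that state. Ighv15-2, at 0.871% in transitional replicate 1, was at 0.142% in follicular replicate 1, the lowest of the 6 follicular libraries, and at 0.261% after CD40L. Whether libraries with the same number came from the same mouse is not stated in the labels.

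The evenness of use can be put in a single value per library, the effective number of segments, which is the number of equally used segments that would give the same Shannon entropy. It was 56.3, 60.6 and 61.1 in WT transitional libraries and 51.5, 60.4 and 26.0 in Sh3gl1-/- transitional libraries. In the remaining 12 libraries it ran from 58.8 to 61.6, so the low values were those of Sh3gl1-/- transitional replicates 1 and 3. The difference between genotypes was -13.4 in the mean, with overlapping groups and an exact permutation p of 0.2 (two-sided, 0.4 adjusted). With Ighv1-26 left out, replicate 3 stood at 56.7 and replicate 1 at 50.9.

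A plasma cell gene was also higher in these libraries. Jchain, which encodes the joining chain of secreted IgM, was at 649, 585 and 406 CPM in WT transitional libraries and at 2774, 1066 and 4518 CPM in Sh3gl1-/- transitional libraries. The groups do not overlap, and the log2 difference was 2.35 (SE 0.42) with an adjusted p of 0.0259 by edgeR. Among the Sh3gl1-/- libraries the order by Jchain, replicate 3 above 1 above 2, was the reverse of the order by effective number of segments. Of the 5 plasma cell genes (Sdc1, Prdm1, Xbp1, Jchain, Tnfrsf17) edgeR called Jchain alone, without a call in 6 of 13 alternatives, while 3 had an unadjusted p under 0.05 and DESeq2 called 2. Xbp1, a transcription factor of antibody secretion, had a log2 difference of 0.83 (adjusted p = 0.106 by edgeR), and Tnfrsf17, a survival receptor of plasma cells, one of 2.02 (adjusted p = 0.162 by edgeR). The sum of the 5 was 429 to 670 CPM in WT and 1087 to 4572 CPM in Sh3gl1-/- transitional cells, nearly all of it Jchain, and their part in the segment shares was not tested.

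No marker of B-1 cells was called in transitional cells. The 6 genes Cd5, Spn, Zbtb32, Bhlhe41, Ctla4 and Myo1d summed to 92.7 to 139 CPM in WT and 84.3 to 127 CPM in Sh3gl1-/- transitional cells, most of it Bhlhe41. That gene was itself called lower by edgeR in follicular than in transitional cells of both genotypes. Of the 5 tested between genotypes, 0 were called by edgeR, 0 by DESeq2, and 0 had an unadjusted p under 0.05 by edgeR. Cd5 itself was at 6.70 to 9.79 CPM and 7.33 to 9.67 CPM. The red cell globin genes Hbb-bs and Hba-a1 were both called higher in Sh3gl1-/- transitional cells (adjusted p = 0.0327 and 0.0452 by edgeR). Hbb-bs was at 797 to 1352 CPM in WT and 1561 to 3274 CPM in Sh3gl1-/- transitional libraries, and Hba-a1 at 463 to 818 and 871 to 1964 CPM. The 5 neutrophil genes summed to 41.4 to 78.2 and 89.1 to 454 CPM, with 0 of 5 called by edgeR, 3 at an unadjusted p under 0.05 and 1 called by DESeq2. In the Sh3gl1-/- replicates 1 to 3 their sum was 454, 89.1 and 134 CPM, in the replicate order of Ighv11-2. The 5 T cell genes (Cd3e, Cd3g, Cd4, Cd8a, Trac) summed to 33.7 to 51.5 CPM in WT and 55.8 to 83.9 CPM in Sh3gl1-/- transitional cells, with 0 called by edgeR, 4 at an unadjusted p under 0.05 and 2 called by DESeq2. Of the 3 markers of transitional cells (Cd93, Cd24a, Vpreb3), Cd24a was called lower in Sh3gl1-/- transitional cells, by a log2 difference of -0.87 (adjusted p = 0.0257 by edgeR), and DESeq2 called 2. These 3 summed to 873 to 1009 CPM in WT and 505 to 802 CPM in Sh3gl1-/- transitional cells, without overlap. Cd93 did not share this direction, with raw counts of 950, 970 and 728 in WT and 1415, 1343 and 805 in Sh3gl1-/- transitional libraries. The part of any of these genes in the segment shares was not tested.

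In follicular cells no segment was called between genotypes. By edgeR 0 of 91 segments passed, 6 had an unadjusted p under 0.05, and DESeq2 called 1, Ighv11-2; over all genes 0.816% were called. Ighv11-2 took 0.430%, 0.641% and 0.552% in WT and 1.63%, 0.5% and 1.69% in Sh3gl1-/- follicular libraries. Replicates 1 and 3 of Sh3gl1-/- cells lay above every WT library and replicate 2 lay within their range. The log2 difference was 1.22 (SE 0.40, adjusted p = 0.247 by edgeR, 0.0392 by DESeq2), and 1.61 (adjusted p = 0.0159 by edgeR) without replicate 2. Segments whose groups did not overlap numbered 14 of 91 (15.4%), against 16.1% of all genes. Ighv12-3 was among them, at 0.0790% to 0.126% in WT and 0.132% to 0.164% in Sh3gl1-/- cells, with a log2 difference of 0.42 (adjusted p = 0.837 by edgeR). Neither globin gene was called here by edgeR (adjusted p = 0.255 for Hbb-bs and 0.343 for Hba-a1, both with an unadjusted p under 0.05) or by DESeq2. Hbb-bs was at 480 to 1257 CPM in WT and at 2259, 1052 and 3215 CPM in Sh3gl1-/- follicular replicates 1 to 3, the replicate order also seen for Ighv11-2. Of the T cell genes, Cd3e was called higher in Sh3gl1-/- follicular cells (log2 difference 1.37, adjusted p = 0.00413 by edgeR), all 5 had an unadjusted p under 0.05, DESeq2 called 3, and their sum was 47.9 to 68.8 CPM in WT and 97.5 to 135 CPM in Sh3gl1-/- cells. The neutrophil genes summed to 51.3 to 135 CPM and 144 to 639 CPM, with 0 called by either tool and 4 of 5 at an unadjusted p under 0.05 by edgeR. Of the 6 B-1 genes 0 were called by edgeR or DESeq2 and 2 had an unadjusted p under 0.05, Cd5 (log2 difference 0.93, adjusted p = 0.2 by edgeR) and Ctla4 (1.41, adjusted p = 0.278 by edgeR). Cd5 was at 4.8 to 7.3 CPM in WT and 15.2, 11.4 and 7.7 CPM in Sh3gl1-/- follicular replicates 1 to 3. Of the 3 markers of transitional cells, Cd24a was called lower here too, by -0.75 on the log2 scale (adjusted p = 0.00413 by edgeR). All 3 had an unadjusted p under 0.05 by edgeR, and DESeq2 called 2. Cd93 went the other way, with raw counts of 182, 233 and 165 in WT and 350, 354 and 202 in Sh3gl1-/- follicular libraries. The part of these genes in the share of Ighv11-2 was not tested. Jchain was at 44.6 to 100.1 CPM in WT and 114 to 145 CPM in Sh3gl1-/- follicular cells (adjusted p = 0.355 by edgeR).

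After CD40L, Ighv11-2 took 0.274%, 0.745% and 0.381% in WT and 2.02%, 0.447% and 1.37% in Sh3gl1-/- libraries. Again replicates 1 and 3 of Sh3gl1-/- cells were above all WT libraries and replicate 2 was not, and the log2 difference was 1.46 (SE 0.54, adjusted p = 0.66 by edgeR). Of 82 segments tested, edgeR and DESeq2 each called 0, with 3 at an unadjusted p under 0.05 by edgeR, against 0.0227% of all genes called. Segments without overlap were 8 of 82 (9.76%), against 13.5% of all genes. Ighv12-3 had too few counts to be tested here and was at 0.0335% to 0.0877% in WT and 0.116% to 0.186% in Sh3gl1-/- cells. Hbb-bs was at most at 131 CPM and Jchain at 31.8 CPM in the CD40L-treated libraries. The neutrophil genes summed to 7.8 to 34.1 CPM in WT and to 157, 42.0 and 41.5 CPM in Sh3gl1-/- replicates 1 to 3, without overlap; 0 of 3 tested were called by edgeR or DESeq2, and 3 had an unadjusted p under 0.05 by edgeR (Ngp, log2 difference 2.23, adjusted p = 0.386). The T cell genes summed to 8.0 to 9.2 and 12 to 15.6 CPM, with 0 of 3 called by either tool and 2 at an unadjusted p under 0.05 by edgeR, and of the 6 B-1 genes 0 were called by either and 0 had an unadjusted p under 0.05. The part of these genes in the share of Ighv11-2 was not tested.

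Whether the genotype difference itself changed with cell state was tested as an interaction. For Ighv11-2 the difference was larger by 1.24 on the log2 scale (SE 0.68) in transitional than in follicular cells, which did not pass the test (adjusted p = 0.444 by edgeR). Between CD40L-treated and untreated follicular cells it differed by 0.24 (SE 0.75, adjusted p = 0.958 by edgeR). Over all segments 0 of 99 and 0 of 91 were called by edgeR and 0 by DESeq2, with 7 and 1 at an unadjusted p under 0.05 by edgeR, against 0.0686% and 0% of all genes called. On simulated counts the CD40L interaction was recovered for 5 of 10 segments, changed by 1 or 2 on the log2 scale, so interactions of that size could be missed.

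The second question was how segment use differed between transitional cells and the follicular cells that develop from them. In both genotypes, 5 segments of family 1, on the far side of the locus, took a larger share in follicular cells, which was not so when all genes were scaled to the whole library. Ighv6-3, Ighv6-6 and Ighv13-2, from a stretch nearer the D side, took a smaller share in both. In WT cells 11 of 99 segments tested were called (11.1%), 6 higher and 5 lower, against 25.4% of all genes (11.6% higher and 13.8% lower). In Sh3gl1-/- cells 19 of 99 were called (19.2%), 15 higher and 4 lower, against 10.2% of all genes (3.79% higher and 6.38% lower). Segments whose groups did not overlap numbered 32 (32.3%) in either genotype, against 40.6% of all genes in WT and 30.1% in Sh3gl1-/- cells. Of the called segments, 8 were the same in both genotypes and in the same direction, which is 72.7% of the WT list and 42.1% of the Sh3gl1-/- list.

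Ighv1-80 (chr12:115912344-115912776) took 0.890%, 1.07% and 0.888% in WT transitional and 2.07%, 1.76% and 1.76% in WT follicular libraries. In Sh3gl1-/- cells it took 0.565%, 0.786% and 0.889%, and then 1.66%, 1.91% and 1.80%. Follicular libraries were above transitional ones in both genotypes, by 0.97 on the log2 scale in WT (SE 0.17, adjusted p = 0.000969) and 1.26 in Sh3gl1-/- cells (SE 0.17, adjusted p = 0.000272), both by edgeR. Its neighbour Ighv1-82 (chr12:115952538-115953005) went from 1.11%, 1.61% and 1.35% to 2.42%, 2.5% and 2.21% in WT cells.

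Ighv1-50 (chr12:115119748-115120219), Ighv1-52 (chr12:115145487-115145919) and Ighv1-69 (chr12:115623161-115623595) were the other segments called higher in both genotypes. Ighv1-50 took 1.41%, 1.32% and 1.69% in WT transitional and 2.61%, 2.31% and 2.68% in WT follicular libraries. In Sh3gl1-/- cells it took 1.29%, 1.49% and 1.08%, then 3.02%, 2.88% and 2.39%. The log2 differences in share of these 5 segments ran from 0.60 to 0.97 in WT and from 0.87 to 1.26 in Sh3gl1-/- cells, with no overlap between states. Ighv8-6 (chr12:115165777-115166220), at 0.038% to 0.063% in WT transitional and 0.166% to 0.198% in WT follicular cells, was called in WT but not in Sh3gl1-/- cells. An interaction test on it did not pass.

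Ighv6-3 (chr12:114391712-114392169), the third most used segment in WT cells, was lower in follicular cells of both genotypes. It took 6.22%, 4.59% and 4.52% in WT transitional and 3.19%, 2.36% and 2.69% in WT follicular libraries. In Sh3gl1-/- cells it took 4.66%, 4.78% and 4.12%, then 2.18%, 3.03% and 2.74%. The states do not overlap, and the log2 differences in share were -0.90 (SE 0.15, adjusted p = 0.000896) and -0.77 (SE 0.15, adjusted p = 0.00472) by edgeR.

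Ighv13-2 and Ighv6-6, within the same stretch of the locus, were called lower in both genotypes too. Ighv13-2 (chr12:114357759-114358218) took 1.10%, 1.09% and 1.02% in WT transitional and 0.490%, 0.373% and 0.632% in WT follicular libraries. Ighv6-6 (chr12:114434788-114435244) took 1.86%, 1.44% and 1.46%, then 0.592%, 0.777% and 0.536%. Their log2 differences were -1.11 and -1.31 in WT and -0.63 and -0.88 in Sh3gl1-/- cells. There the values of Ighv6-6 overlapped between states through transitional replicate 3 alone (0.7304%, against at most 0.7345% in follicular cells). A single segment at 35.4% lowered every other share in that library. With that segment left out of the sum, Ighv6-6 took 1.33%, 1.65% and 1.13% in Sh3gl1-/- transitional libraries. In Sh3gl1-/- follicular libraries Ighv6-6 then took 0.556%, 0.71% and 0.78%, without overlap. Ighv4-1 (log2 difference -0.84) and Ighv7-3 (-0.44) were called lower in WT but not in Sh3gl1-/- cells, without a called interaction. The calls of Ighv13-2 in Sh3gl1-/- and of Ighv7-3 in WT cells were not reached in 14 and 15 of 20 alternatives. With replicate numbers paired within each genotype, the adjusted p was 0.0596 for Ighv13-2 and 0.065 for Ighv7-3 by edgeR.

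Ighv11-2 was the segment with the largest fall among those called in Sh3gl1-/- cells, -2.05 on the log2 scale (SE 0.46, adjusted p = 0.0105 by edgeR), from 9.13%, 2.87% and 3.51% to 1.63%, 0.5% and 1.69%. In WT cells it was at 0.662% to 1.39% in transitional and 0.430% to 0.641% in follicular libraries, a log2 difference of -0.80 (adjusted p = 0.268). Jchain fell as well, by 4.49 on the log2 scale in Sh3gl1-/- and by 2.75 in WT cells, and its part in these shares was not tested.

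**Figure D3:**
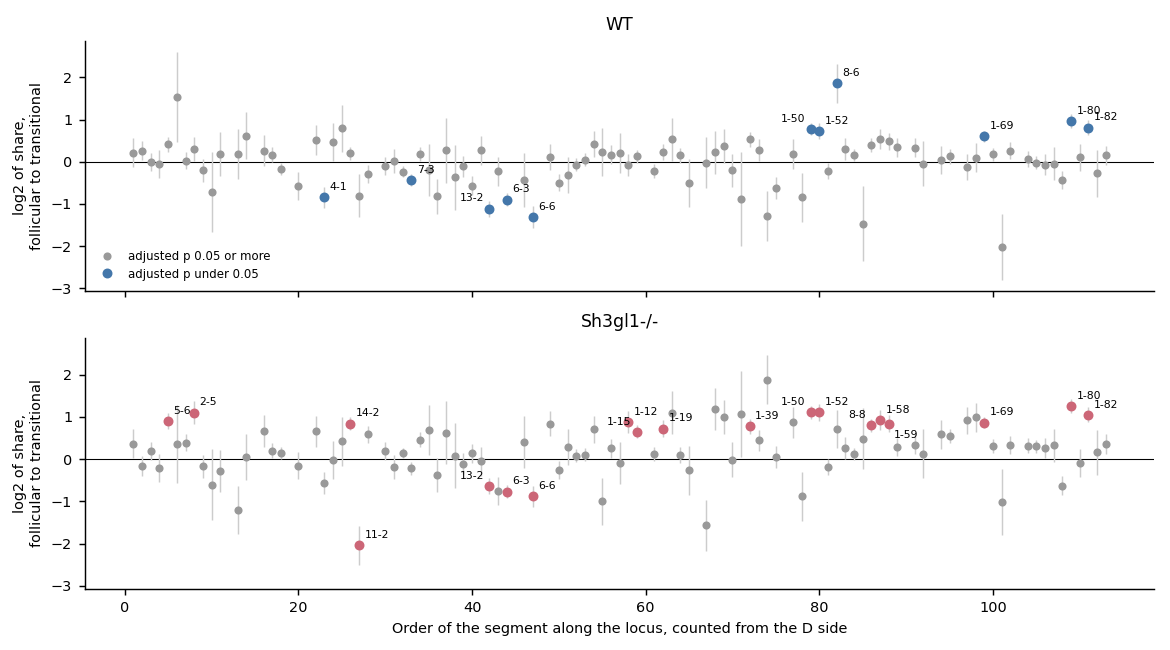
Log2 difference in share between follicular and transitional cells (vertical axis, error bars are SE) for the 99 segments tested, ordered along the locus from the D side (horizontal axis), in WT (top) and Sh3gl1-/- cells (bottom). Coloured points passed an adjusted p under 0.05 by edgeR, 11 in WT and 19 in Sh3gl1-/- cells; with all genes scaled to the whole library instead, every call was lower (50 and 49).

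These are changes in share, on top of a lower summed level. The summed Ighv counts made up 0.152%, 0.195% and 0.169% of WT transitional and 0.0858%, 0.102% and 0.0896% of WT follicular libraries, a ratio of 0.538. In Sh3gl1-/- cells they made up 0.228%, 0.187% and 0.243%, then 0.0924%, 0.103% and 0.0872%, a ratio of 0.430. With all genes scaled to the whole library by TMM, 50 of 99 segments were called in WT and 49 in Sh3gl1-/- cells, all lower in follicular cells. Of all 14580 genes tested, 3772 in WT and 1518 in Sh3gl1-/- cells were called with this scaling, in either direction. On that scale Ighv1-50, Ighv1-52, Ighv1-69 and Ighv1-82 changed sign and were not called, and Ighv1-80 stood at a log2 difference of 0.01 in WT and 0.05 in Sh3gl1-/- cells, also not called. The median over the segments on that scale was -0.84 in WT and -0.91 in Sh3gl1-/- cells. Ighm, the constant region joined to them, was at 11036 to 12691 CPM in WT transitional and 5442 to 5629 CPM in WT follicular cells.

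Of the 15 segments higher in Sh3gl1-/- follicular cells, 11 were of family 1. Sh3gl1-/- transitional replicate 3, where Ighv1-26 lowered all other shares, bears on this list: without it 13 segments were called, 8 higher and 5 lower, and with Ighv1-26 and Ighv11-2 left out of the sum 15 were called, 8 higher and 7 lower. Leaving out Sh3gl1-/- follicular replicate 3 gave the lowest count, 10. Over the segments tested, the median log2 difference was 0.29 in Sh3gl1-/- and 0.10 in WT cells, against -0.0014 and 0.03 over all genes, and 0.07 in Sh3gl1-/- cells with those 2 segments left out of the sum.

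**Figure D4:**
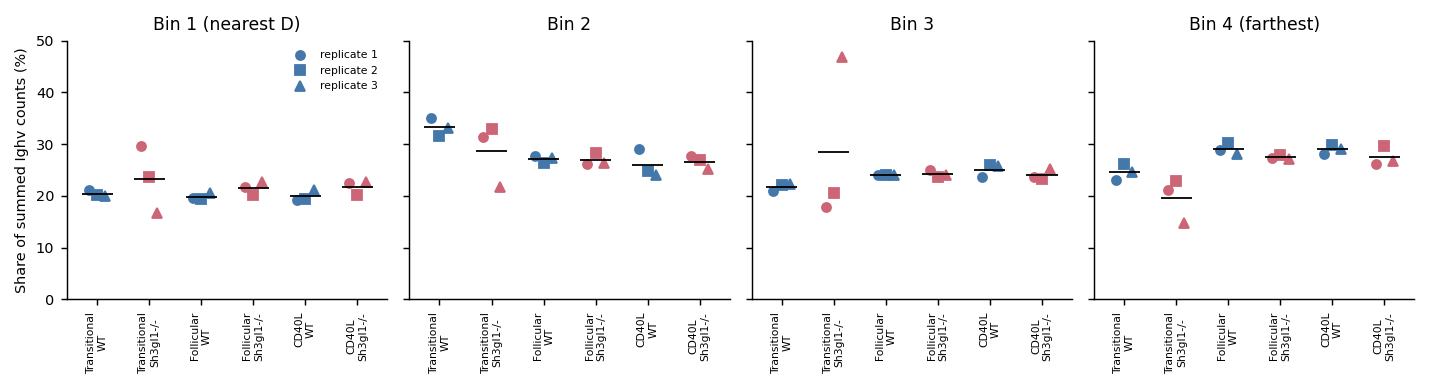
Summed share of the segments in each of 4 bins of the locus (percent of the Ighv counts, vertical axis), with bin 1 nearest the D segments, in every library by cell state and genotype; symbols mark the replicate number and bars the mean of 3. Bin 4 goes from 23.0% to 26.1% in WT transitional to 28.1% to 30.2% in WT follicular libraries, and the Sh3gl1-/- transitional point at 46.9% in bin 3 is the library with Ighv1-26 at 35.4%.

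Position along the locus was described by dividing the 113 segments, in order from the D side, into 4 bins of 28 or 29 segments. In WT cells bin 2 held 35.1%, 31.7% and 33.2% in transitional and 27.8%, 26.4% and 27.4% in follicular libraries. Bin 4, the farthest, held 23.0%, 26.1% and 24.6%, and then 28.8%, 30.2% and 28.1%. Bin 3 held 20.9%, 22.2% and 22.2% in WT transitional and 23.9%, 24.1% and 24.0% in WT follicular libraries. None of bins 2, 3 and 4 overlapped between states in WT cells. In Sh3gl1-/- cells bin 4 went from 21.2%, 22.9% and 14.8% to 27.3%, 27.9% and 27.0%, and bin 2 from 31.3%, 33.0% and 21.6% to 26.1%, 28.4% and 26.3%, where the low transitional values are those of replicate 3. Bin 1 held at most 21.0% in WT transitional and at most 20.6% in WT follicular cells. Of the 5 segments called lower in WT follicular cells 4 were in bin 2, from Ighv7-3 to Ighv6-6, and the 6 called higher were in bins 3 and 4, 3 in each.

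The third question was whether 14 h of CD40L went with other segment shares than in untreated follicular cells. No segment was called. By edgeR and by DESeq2, 0 of 91 segments were called in either genotype (1 in WT and 3 in Sh3gl1-/- cells at an unadjusted p under 0.05 by edgeR), while 48.8% of all genes in WT and 41.9% in Sh3gl1-/- cells were. Segments whose groups did not overlap numbered 15 in WT (16.5%) and 11 in Sh3gl1-/- cells (12.1%), against 56.1% and 52.8% of all genes. These percentages are not on the same scale. Segments were compared by share, which leaves out a fall common to all of them, and the other genes by level. Calls of segments and genes on 1 common scale are given below. The median log2 difference in share was 0.06 and 0.02. The most used segment, Ighv9-3, took 5.41%, 5.58% and 5.56% in WT follicular libraries and 5.36%, 5.23% and 5.05% after CD40L.

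The summed Ighv level was lower after CD40L in all libraries, at 0.0392%, 0.05% and 0.0387% of WT and 0.0438%, 0.0416% and 0.0494% of Sh3gl1-/- libraries. The ratios to untreated follicular cells were 0.461 and 0.477, and no library overlapped with the untreated group. For each of the 4 comparisons between cell states the exact permutation p for the summed level was 0.1, the smallest possible, and 0.255 adjusted. Scaled to the whole library by TMM, 63 of 91 segments in WT and 61 in Sh3gl1-/- cells were called, all lower after CD40L. Of all 14460 genes tested, 7126 in WT and 6131 in Sh3gl1-/- cells were called on that scale, in either direction.

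**Figure D5:**
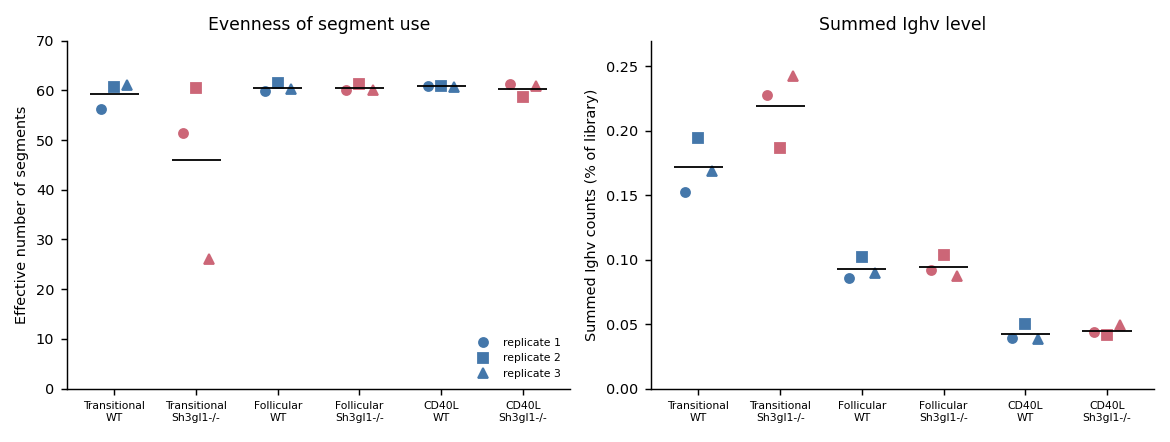
Effective number of segments (left) and summed Ighv counts as a percent of the library (right) in every library, by cell state and genotype; symbols mark the replicate number and bars the mean of 3. The effective number is 26.0 and 51.5 in Sh3gl1-/- transitional replicates 3 and 1 and 56.3 to 61.6 in all other libraries, and the summed level steps down from transitional to follicular to CD40L-treated cells.

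The other segments with known receptors did not pass the test in any comparison. Ighv7-1, of the T15 receptor, ranged from 0.211% to 0.801% over the 18 libraries. Ighv5-2, next to the D segments and often used by early B-cell precursors, ranged from 0.136% to 0.507%. Ighv1-72, of the NP-binding receptor, was at 2.66%, 2.58% and 2.86% in WT and 1.89%, 2.07% and 2.02% in Sh3gl1-/- cells after CD40L, with no overlap. Its log2 difference was -0.44 (SE 0.19) with an adjusted p of 0.705 by edgeR, and its nearest relative Ighv1-62-3 is 99% identical.

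Genes that act on the V segments were read beside them. Of 7 genes of V(D)J recombination and the pre-B receptor (Rag1, Rag2, Dntt, Vpreb1, Vpreb2, Vpreb3, Igll1), 2 could be tested between genotypes in transitional cells, where 0 were called by edgeR, 1 had an unadjusted p under 0.05 and DESeq2 called 1, while Rag1 and Vpreb3 were called lower in follicular than in transitional cells of both genotypes. Rag1, of the recombinase, was at 0.632 to 3.80 CPM in WT and 0.216 to 2.30 CPM in Sh3gl1-/- transitional libraries and at 0 in all 6 follicular libraries.

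Of the 4 receptor partners (Ighm, Ighd, Cd79a, Cd79b), Ighd, the second constant region used by naive B cells, was the 1 called by edgeR, higher in Sh3gl1-/- cells of both untreated states. It was at 2655, 3371 and 2460 CPM in WT and 4210, 4042 and 4232 CPM in Sh3gl1-/- transitional libraries, a log2 difference of 0.56 (adjusted p = 0.0302 by edgeR). In follicular cells the difference was 0.34 (adjusted p = 0.0491 by edgeR). The signaling chains of the receptor had lower values in Sh3gl1-/- transitional cells without a call by edgeR, Cd79b by a log2 difference of -0.35 (adjusted p = 0.0868) and Cd79a by -0.24 (adjusted p = 0.177), and DESeq2 called 2 of the 4, Ighd and Cd79b. Ighm differed by 0.19 in transitional (adjusted p = 0.291 by edgeR) and by -0.21 in follicular cells (adjusted p = 0.0842 by edgeR), where all 4 had an unadjusted p under 0.05 and DESeq2 called 1. The summed Ighv level overlapped between genotypes in both states, at 0.172% ± 0.0214 in WT and 0.219% ± 0.0289 in Sh3gl1-/- transitional cells (SD, n = 3, two-sided exact permutation p = 0.2) and 0.0925% ± 0.0085 and 0.0943% ± 0.0082 in follicular cells (p = 0.7).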

How the data were processed

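RNA was read from 18 libraries in 6 groups of 3, grouped by the labels. The labels name a stranded KAPA poly-A kit, while the study's methods name SMART-Seq HT and Nextera XT. Per the labels, the authors' processing used cutadapt 1.9.1, STAR 2.5.2a and RSEM 1.3.0 on GRCm38, while the methods name TopHat and Cufflinks; the annotation release is not given in the sources used here. The methods describe RNA isolation for follicular cells only. The labels give 14 h of CD40L, and the paper describes the length of culture in other ways. The authors deposited expected counts, TPM and FPKM per gene: expected counts are estimates, not normalized for library size, TPM are scaled to transcript length and library, and FPKM was not used. No column of values (0) was left out.

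Symbols, biotypes and positions came from GENCODE M21 (51719 of 51912 identifiers matched), and V exons were aligned with Biopython 1.88. Expected counts were rounded. The whole table was fitted with edgeR 4.0.16 (R 4.3.3; filterByExpr by group, glmQLFit, glmQLFTest), with 1 coefficient per group. The offset was the TMM-scaled library size for all genes except the segments, whose offset was the summed Ighv counts, so their log2 difference is one of share. Genotypes were compared within the 6 libraries of a state, and states and interactions within 12 libraries. The p-values were adjusted over all genes tested (Benjamini-Hochberg) and called under 0.05, and SE is the size of the log2 difference over the square root of F. CPM use TMM-scaled totals of all 18 libraries. Library values were compared by two-sided exact permutation. On simulated counts for the transitional comparison, edgeR recovered 169 of 200 changed genes (87 of 90 changed by 2 on the log2 scale, 82 of 110 changed by 1) with 11 false calls among 13771 genes, and 9 of 10 changed segments with 0 false calls. For the interaction of genotype with CD40L it recovered 109 of 200 genes (77 of 92 and 32 of 108) among 14055, with 5 false calls, and 5 of 10 segments. The counts were simulated with the same dispersion (spread between replicates) for every gene. It was set below the common dispersion fitted to the data, 0.0368 for the transitional and 0.0474 for the interaction fit, so recovery may be lower in these data.

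The members, gene lists and tests were chosen with earlier results of these data known. Named segments are the 10 with the highest mean share in WT, up to 5 called without overlap in either direction of each comparison (ordered by adjusted p), and 5 segments of known receptors; others are marked where they appear. Some genes of the fixed lists are not reported here. Replicates are separate samples by their labels and came from littermates, and no pair in a group agreed within sampling noise (chi-square per degree of freedom 2.05 to 143 over segments). Same-numbered libraries deviated together between transitional and follicular cells (lowest correlation over 15117 genes 0.103 in WT and 0.115 in Sh3gl1-/- cells). That meets the rule used here for pairing (every correlation over 0.1), and so did WT follicular and CD40L-treated cells (0.136), but not the Sh3gl1-/- ones (0.03) or WT with Sh3gl1-/- libraries (lowest -0.088). Over 82 Ighv segments alone, the correlations between transitional and follicular cells were -0.29, 0.351 and -0.181 in WT. In Sh3gl1-/- cells they were 0.218, 0.465 and 0.163. Ighv sequences came from GENCODE; 0 of the 113 segments matched the RefSeq promoter table.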

Additional observations from a re-analysis of the deposited data

How the results depend on the processing

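The calls between genotypes were few and moved with the settings. In transitional cells the count of segments called was 2. It was 1 with all genes scaled to the whole library by TMM or by median-ratio factors (RLE) and 1 with all 18 libraries in 1 fit, 7 by DESeq2, 13 without a filter on low counts, and 0 to 7 when leaving out each library in turn. Segments tested numbered 96 by DESeq2 and 110 without the filter. Over all genes, DESeq2 called 1345 of 13774, and 1426 of 24719 were called without the filter. Leaving out a library gave 28 of 14180 to 489 of 14103 genes. In follicular cells the count of segments was 0, 1 by DESeq2, 2 without the filter and 0 to 1 when leaving out a library (1 without Sh3gl1-/- replicate 2, Ighv11-2). Over all genes, DESeq2 called 352 of 13610, and 603 of 24156 were called without the filter. After CD40L the count of segments was 0, and 1 without the filter, where 211 of 23365 genes were called. For the interaction between transitional and follicular cells the count of segments was 0, and 3 without the filter, where 461 of 26727 genes were called.

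Between cell states, scaling to the whole library turned shares into levels. For follicular against transitional cells the calls went from 11 to 50 (TMM) or 52 (RLE) in WT and from 19 to 49 or 47 in Sh3gl1-/- cells, with 10 to 23 in the latter when leaving out a library. Over all 14580 genes, calls numbered 3772 (TMM) or 3776 (RLE) in WT and 1518 or 1514 in Sh3gl1-/- cells. For CD40L against follicular cells the segment calls went from 0 to 63 or 61 in WT and 61 or 61 in Sh3gl1-/- cells, with 2 and 2 in a fit of all 18 libraries, and 0 to 1 and 0 to 2 when leaving out a library. Over all 14460 genes, calls numbered 7126 (TMM) or 7101 (RLE) in WT and 6131 or 6128 in Sh3gl1-/- cells. These scalings are built on all genes and hold the fall of the summed Ighv level, while shares do not. Under TMM and RLE the log2 differences between follicular and transitional cells turned to -0.15 and -0.16 (Ighv1-50), -0.33 and -0.35 (Ighv1-69), -0.13 and -0.15 (Ighv1-82) and -0.21 and -0.23 (Ighv1-52) in WT, and to -0.087 and -0.0825, -0.33 and -0.33, -0.13 and -0.13, and -0.0825 and -0.078 in Sh3gl1-/- cells.

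Small differences changed sign. The effective number of segments differed between genotypes in follicular cells by -0.24 without Ighv11-2 and Ighv12-3, and by -0.37 to 0.52 when leaving out a library. The ranges from leaving out a library were -1.05 to 0.21 for genotypes after CD40L, -0.30 to 2.12 for follicular against transitional WT cells, and -0.0214 to 0.80 (WT) and -0.78 to 0.49 (Sh3gl1-/-) for CD40L against follicular cells, the WT value being -0.0451 with pseudogenes included. The summed Ighv level of Sh3gl1-/- minus WT follicular cells was -0.0023 percentage points by TPM, and -0.0027 to 0.0066 when leaving out a library. Ighv11-2 plus Ighv12-3 after CD40L in Sh3gl1-/- cells ranged from -0.36 to 0.46 points. For Ighv1-26 the genotype difference ranged from -0.24 to 2.06 on the log2 scale in transitional, -0.0734 to 0.17 in follicular and -0.0586 to 0.10 in CD40L-treated cells, and the interaction of Ighv11-2 after CD40L from -0.24 to 0.76. Where a cause is not named, the cause was not tested.

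With the replicate number as a block, 0 segments were called between genotypes in transitional cells, 0 in follicular and 0 in CD40L-treated cells; WT and Sh3gl1-/- libraries share only a number. Between transitional and follicular cells the numbers met the rule for pairing over all genes, though the labels do not state a pairing. There a block within each genotype gave 11 calls in WT and 22 in Sh3gl1-/- cells (10 and 21 with 1 block shared by both genotypes). No other named call changed than those of Ighv13-2 and Ighv7-3. The block within each genotype, the sums without Ighv1-26 and the denominator without Ighv1-26 and Ighv11-2 were alternatives chosen after seeing the data. Depth limits rare segments most after CD40L, where 31 of 113 segments could not be tested between genotypes.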
